A study of Homo sapiens with 12 samples.

Results

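The comparison set cells given sgPNA-21 against cells given sgPNA-10b, each at 150 nM, in U87, an established human glioblastoma cell line. It used 6 of the 12 libraries of the series: PNA-21 (3 libraries, 150 nM sgPNA-21) and PNA-10b (3 libraries, 150 nM sgPNA-10b), chosen by the column names of the count table. Both agents were delivered in nanoparticles for 72 h, so the carrier, the dose and the time are shared and the agent differs. Untreated cells (Control, 3 libraries) are given as levels beside both arms. Cells given both agents (PNA-10b+21, 3 libraries) entered only the steps shared by all 12 libraries. These were the choice of genes tested, the scaling factors, the mean level of a gene and the estimate of the spread. The labels describe neither an arm with empty nanoparticles nor one with a PNA of unrelated sequence, and all 4 groups come from a single cell line whose genotype they give as wild type. They do not say whether the 3 libraries of an arm came from separate cultures, so p-values measure only the spread between these libraries, which may be technical.

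A microRNA guides a protein complex to messenger RNAs through its seed, a short stretch near its 5′ end, which pairs with sites that lie mostly in 3′ untranslated regions (UTRs). A bound messenger RNA is usually degraded or translated less. A peptide nucleic acid (PNA) carries the bases of DNA on a backbone like that of a peptide. An anti-seed PNA is made to pair with the seed and keep the microRNA from its targets. Both miR-21 and miR-10b are abundant in glioblastoma and are described as promoting its growth. Reported targets of miR-21 include PDCD4, TIMP3 and RECK, and the best known reported target of miR-10b is HOXD10.

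The sequences at which the agents are directed come from RefSeq (GRCh38.p14), with the seed, bases 2 to 8 of the mature microRNA, in capitals. The mature miR-21-5p lies at chr17:59841273-59841294 on the plus strand. For miR-10b the precursor hairpin of MIR10B is shown, at chr2:176150303-176150412 on the plus strand.
hsa-miR-21-5p: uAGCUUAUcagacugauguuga
MIR10B hairpin: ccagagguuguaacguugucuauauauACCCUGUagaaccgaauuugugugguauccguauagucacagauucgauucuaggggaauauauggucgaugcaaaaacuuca
The seeds differ, and so do the matches to them: a 3′ UTR match to the miR-21 seed reads ATAAGCT, and one to the miR-10b seed reads ACAGGGT. The sources used here do not give the base sequences of the sgPNAs themselves.

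Total counts ran from 14634738 to 18305820 per library in PNA-21, 14026933 to 16969787 in PNA-10b and 12846676 to 17053150 in Control. Of 35741 genes in the table, 15715 had enough counts to be tested, and levels are counts per 1000000 (CPM). On the first principal component of the 6 libraries, which carried 31.4% of their variance, PNA-21 lay from 11.11 to 18.91 and PNA-10b from -22.57 to -9.29. Among 9 glioma and astroglia markers in the table, VIM, CD44 and CHI3L1 were high while SOX2 and S100B had at most 4 counts in any library. The summed level of that list, per 1000000 total counts as in all marker sums here, was 4394 to 4647 CPM in PNA-21, 3984 to 4269 CPM in PNA-10b and 4322 to 4827 CPM in Control, and CHI3L1, one of the 9, is described below. Without CHI3L1 the sum was 2955 to 3322 CPM in PNA-21, 3253 to 3372 CPM in PNA-10b and 3183 to 3359 CPM in Control, so that the arms overlapped. VIM (-0.12 ± 0.07 SE), CD44 (-0.10 ± 0.05 SE) and GFAP (-0.63 ± 0.23 SE), each as a log2 fold change of PNA-21 against PNA-10b, did not pass the test described below. OLIG2 of the same list lay the other way, with 54, 34 and 44 counts in PNA-21 and 26, 31 and 28 in PNA-10b. NES and SOX9 overlapped between the arms. The immune markers summed to 11.03 to 13.1 CPM in PNA-21, 13.1 to 14.2 CPM in PNA-10b and 16.8 to 17.8 CPM in Control, most of it CSF1R, the only one of 4 in the table with enough counts to be tested. The neuronal markers (70.0 to 78.3 CPM in PNA-21, 75.9 to 83.9 CPM in PNA-10b), the endothelial markers (2.73 to 5.08 CPM in PNA-21, 2.77 to 4.35 CPM in PNA-10b) and the epithelial markers (1.15 to 1.503 CPM in PNA-21, 0.784 to 1.38 CPM in PNA-10b) overlapped between the arms. The part of these markers in the results below was not tested. In RNA of a whole culture, fewer cells of a type and less RNA per cell cannot be told apart.

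At equal dose, cells given sgPNA-21 had less messenger RNA of the hypoxia response, of glycolysis, of the collagen-modifying enzymes and of several insulin-like growth factor binding proteins than cells given sgPNA-10b. They had more of a smaller set that held growth factor response genes, DNA replication genes and NRF2 target genes. At an adjusted p under 0.05, PNA-21 exceeded PNA-10b in 458 genes and lay below it in 609 (edgeR's quasi-likelihood test, Benjamini-Hochberg adjustment over all genes tested). Those are 2.91% and 3.88% of the genes tested, 6.79% together. Most of the changes were small, with a median absolute log2 fold change of 0.32 among the genes called. At a fold of at least 2 there were 8 higher (0.0509%) and 33 lower genes (0.21%), and at an absolute log2 fold change of at least 0.5 there were 48 higher and 190 lower. Protein-coding genes supplied 444 of the higher and 532 of the lower genes, of 12277 tested. Long noncoding RNAs were called lower in 53 cases and higher in 11, of 2070 tested.

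These counts rested on all 6 libraries of the comparison. With PNA-21 replicate 1, 2 or 3 left out, 200, 283 and 276 genes were higher. With PNA-10b replicate 1, 2 or 3 left out, 194, 284 and 303 were. The lower genes numbered 373 without PNA-21 replicate 1 and 351 without PNA-10b replicate 1, and the 2-fold higher genes numbered 4 without PNA-21 replicate 1 or PNA-10b replicate 2. The 2-fold lower genes numbered 20 without PNA-10b replicate 1.

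The gene lists below are read against those shares over all genes, and against the median log2 fold change of all genes tested, which was 0.0042, with 49.1% of the folds below 0. Lists and members were chosen with earlier results of these data known, so their shares are descriptions and not independent support. The CPM of the arms did not overlap in 26.2% of all genes tested and in 98.3% of the genes called. Separate arms therefore add little to a call.

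**Figure D1:**
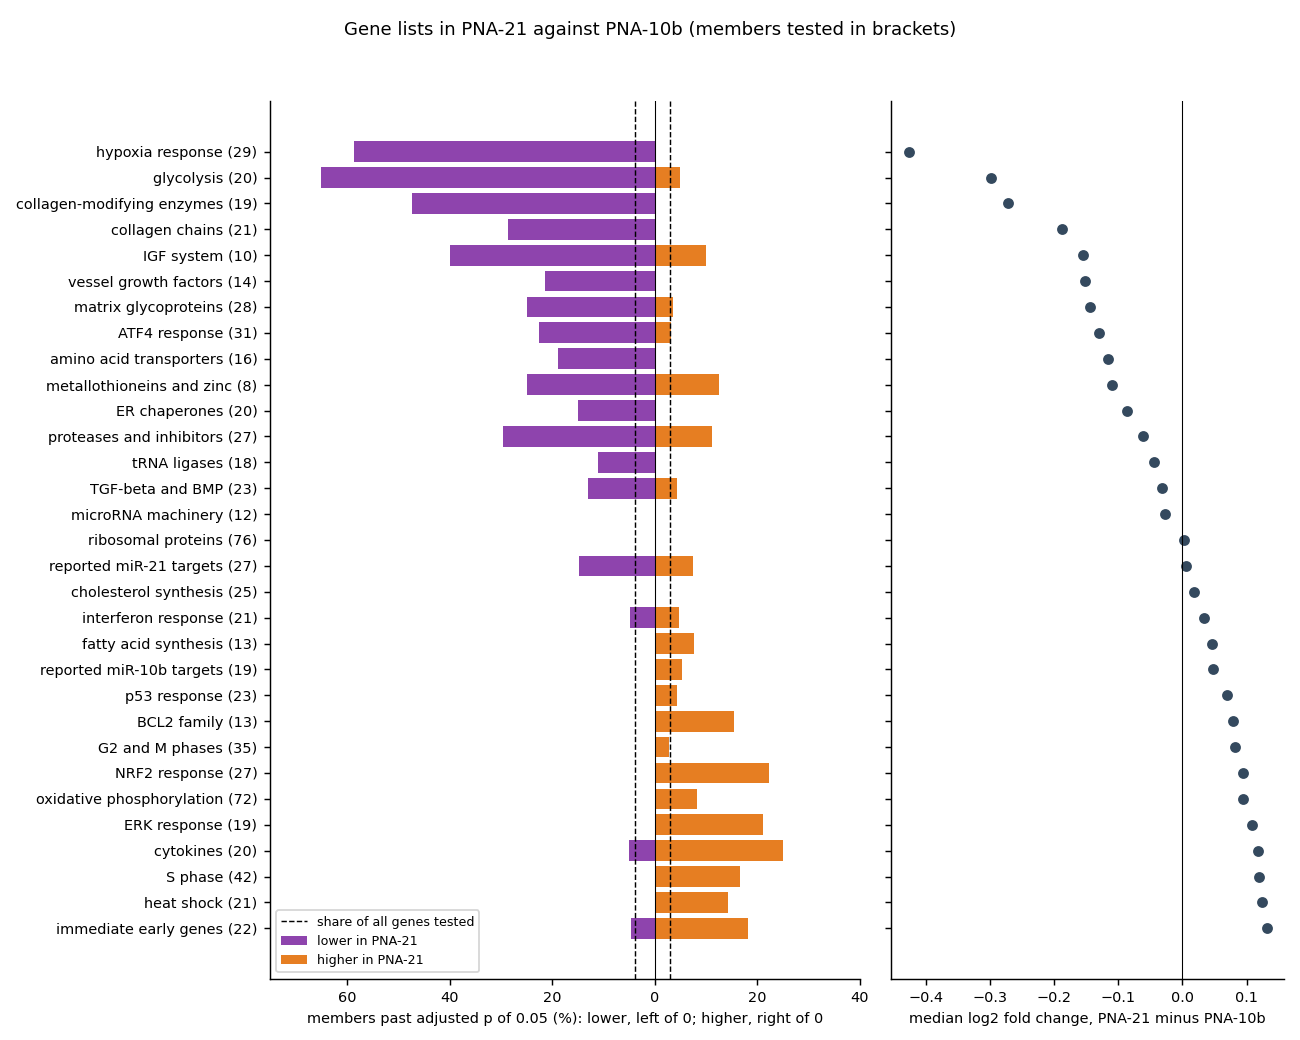
Share of each gene list called lower (left of 0) or higher (right of 0) in PNA-21 than in PNA-10b at an adjusted p under 0.05, in percent of the members tested (number in brackets), beside the median log2 fold change of the list. The dashed lines are the shares over all genes tested, 3.88% lower and 2.91% higher. Glycolysis (65.0% lower) and the hypoxia response (58.6% lower) stand at one end and cholesterol synthesis and ribosomal proteins have no member called.

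The hypoxia response is the set of genes that cells switch on when oxygen is short, mostly through the transcription factors HIF1A and EPAS1. Of 29 members tested, 17 were lower in PNA-21 (58.6%, against 3.88% of all genes) and 0 higher. All 29 folds lay below 0 and the list median was -0.43. CA9 (ENSG00000107159, chromosome 9 from 35673856 to 35681159, hg38), a carbonic anhydrase of the cell surface that is a standard marker of hypoxic tumours, counted 127, 159 and 129 CPM in the PNA-21 libraries, against 252, 250.5 and 248 CPM in PNA-10b and 287, 269 and 262 CPM in Control. Every PNA-21 library was below every PNA-10b library, and the PNA-10b libraries sat just under the Control libraries. The log2 fold change of PNA-21 against PNA-10b was -0.86 ± 0.08 SE (edgeR adjusted p = 1.32e-06), which is 1.81-fold lower.

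TMEM45A, a membrane protein induced by hypoxia, counted 40.4, 48.3 and 40.9 CPM in PNA-21, 78.8, 76.5 and 78.8 CPM in PNA-10b and 92.8, 89.8 and 97.01 CPM in Control (log2 fold change -0.86 ± 0.08 SE). FAM162A, a HIF1A target linked to cell death under low oxygen, counted 79.6, 92.3 and 82.7 CPM in PNA-21, 152, 137 and 138 CPM in PNA-10b and 159, 153 and 161 CPM in Control (-0.75 ± 0.07 SE). CA12, a second carbonic anhydrase of the cell surface, counted 565, 622 and 570.3 CPM in PNA-21, 975, 918 and 932 CPM in PNA-10b and 972, 958 and 1074 CPM in Control (-0.69 ± 0.06 SE). In each of the 4 genes the arms were separate, as in 98.3% of all genes called, and PNA-21 replicate 2 was the PNA-21 library nearest to PNA-10b. The same library stood out in the list mean, which lay -0.69, -0.46 and -0.68 log2 units from the Control mean in PNA-21 replicates 1, 2 and 3, and -0.15, -0.19 and -0.12 in PNA-10b. Side by side, the list median against the shared Control libraries was -0.57 for PNA-21 and -0.14 for PNA-10b. Other members named after their values were seen are the stress gene NDRG1 (-0.75), the lipid droplet protein HILPDA (-0.74), the mitochondrial BNIP3 (-0.73), the vessel growth factor VEGFA (-0.52) and PDK1 (-0.48), a kinase that slows the entry of pyruvate into mitochondria, all given as log2 fold changes. They passed under each alternative run. The transcription factor EPAS1 (-0.21) was lost without PNA-21 replicate 1 or 3 or PNA-10b replicate 1 or 2 (-0.21 to -0.18). Also named after their values were seen, ANGPTL4 (-0.78) and KDM3A were not stable either. ANGPTL4 did not pass in DESeq2 nor without PNA-21 replicate 1 or 3 or PNA-10b replicate 3 (-0.76 to -0.63). KDM3A did not pass without PNA-21 replicate 1 or 3 or PNA-10b replicate 1 (-0.25 to -0.18). The number of lower members ran from 14 without PNA-21 replicate 1 or 3 to 22 without PNA-10b+21 replicate 3.

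The factors that drive this response bind short cores that include ACGTG, the only one searched here. In RefSeq promoters (GRCh38.p14, 250 bases before to 50 after the start site), this motif was searched on both strands. It was present in 14 of 24 promoters found for the hypoxia list (58.3%), in 7 of the 13 found for its lower members (53.8%) and in 5900 of all 27305 promoters (21.6%). Windows of 30 bases around the match are shown for lower members of this list and of glycolysis, with the motif or its reverse complement in capitals. They are given because these genes moved together, and a match is a description of letters, not a site that was tested.
CA9, chr9:35673898-35673927, plus strand: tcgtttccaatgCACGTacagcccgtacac
FAM162A, chr3:122384086-122384115, plus strand: cagcgcgtggcgCACGTcctacacgccccg
PGK1, chrX:78104034-78104063, plus strand: gcggcgtgccggACGTGacaaacggaagcc
ALDOC, chr17:28576906-28576935, minus strand: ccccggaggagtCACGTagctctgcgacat
In the glycolysis list, 8 of 19 promoters held the motif (42.1%), and 6 of the 13 found for its lower members did (46.2%).

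Glycolysis turns glucose into pyruvate and lactate, and tumour cells run it even with oxygen. Of 20 members tested, 13 were lower in PNA-21 (65.0%, against 3.88% of all genes) and 1 was higher, with a list median of -0.30. PGK1, which makes ATP in the pathway, counted 1472, 1705 and 1442 CPM in PNA-21, 2375, 2190 and 2207 CPM in PNA-10b and 2463, 2225 and 2502 CPM in Control. Its PNA-10b libraries overlapped the Control libraries and all PNA-21 libraries lay below both (log2 fold change against PNA-10b -0.55 ± 0.07 SE, edgeR adjusted p = 3.72e-05). The aldolase ALDOC counted 61.6, 66.9 and 63 CPM in PNA-21, 98.1, 89.2 and 94.1 CPM in PNA-10b and 113, 102 and 118 CPM in Control (-0.56 ± 0.06 SE). PFKL, the liver form of phosphofructokinase, changed by -0.33 ± 0.05 SE. The glucose transporter SLC2A1 (-0.53), the lactate dehydrogenase LDHA (-0.39) and the lactate exporter SLC16A3 (-0.50), named after their values were seen, also passed under each alternative run.

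The higher member was PFKM, the muscle form of phosphofructokinase, the enzyme of the committed step. It counted 158, 151 and 155 CPM in PNA-21, 125, 123 and 124 CPM in PNA-10b and 135, 127 and 139.8 CPM in Control, and was higher in PNA-21 than in PNA-10b (0.32 ± 0.05 SE, edgeR adjusted p = 0.000229). The arms did not overlap for PFKM, and its PNA-21 libraries stood above Control and its PNA-10b libraries below. Without one library the number of lower glycolysis members ran from 10 to 14, and 1 member was higher each time. Against the shared Control libraries the list median was -0.37 for PNA-21 and -0.07 for PNA-10b.

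**Figure D2:**
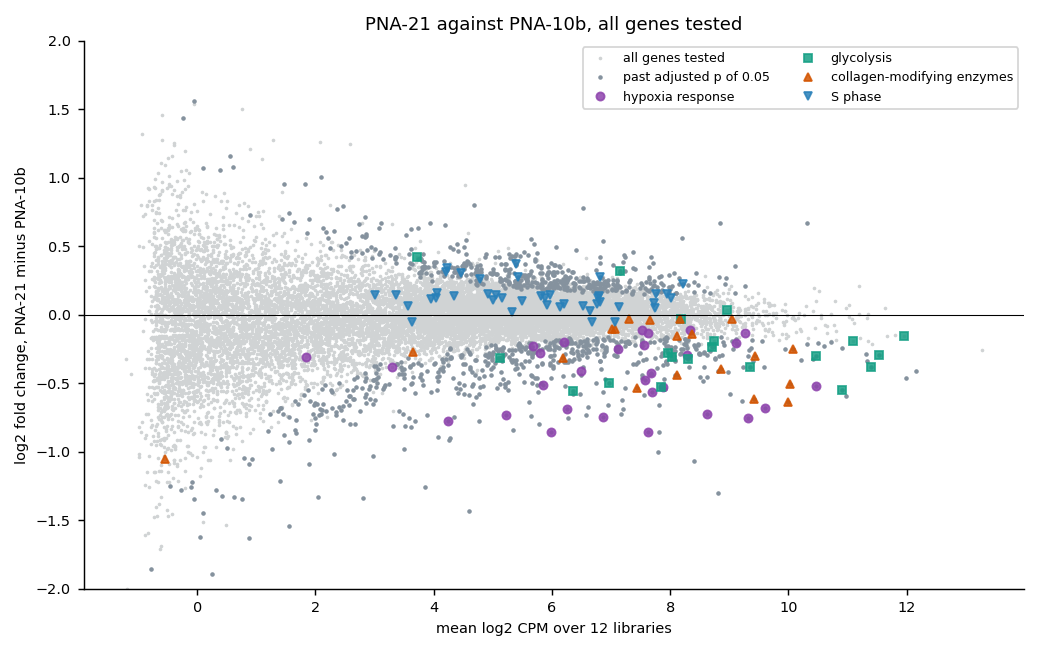
Log2 fold change of PNA-21 against PNA-10b (vertical axis) by mean log2 CPM over the 12 libraries (horizontal axis), 1 point a gene; 14 genes with an absolute log2 fold change over 2 lie outside the axis. Hypoxia response and collagen-modifying enzyme genes lie below 0, and glycolysis genes do with few exceptions, over levels from low to high, while most S phase genes lie just above 0.

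Collagen-modifying enzymes hydroxylate, glycosylate, cleave and crosslink collagen chains. Of 19 tested, 9 were lower in PNA-21 (47.4%, against 3.88% of all genes) and 0 higher, all 19 folds were below 0, and the median was -0.27. LOXL2, which crosslinks collagen and elastin, counted 756, 839 and 752 CPM in PNA-21, 1244, 1193 and 1209 CPM in PNA-10b and 1349, 1253 and 1361 CPM in Control (-0.64 ± 0.06 SE, edgeR adjusted p = 1.31e-06). Its PNA-21 libraries lay well below the other 2 groups. The related oxidase LOXL3 (-0.54 ± 0.06 SE), the lysyl hydroxylase PLOD2 (-0.50 ± 0.08 SE) and the prolyl hydroxylase P4HA2 (-0.40 ± 0.06 SE) were lower too. This count held at 8 or 9 without any one library. The list means were -0.54, -0.55 and -0.56 log2 units from the Control mean in PNA-21, a narrow range, and -0.22, -0.31 and -0.20 in PNA-10b.

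The collagen chains themselves were lower in 6 of 21 cases (28.6%, 0 higher), with a median of -0.19. COL5A1, a chain of the collagen that starts fibril formation, counted 437, 409 and 392 CPM in PNA-21, 641, 599 and 677 CPM in PNA-10b and 866, 862 and 977 CPM in Control. Its 3 groups were separate, in that order (-0.63 ± 0.07 SE against PNA-10b, edgeR adjusted p = 2.05e-05). COL6A3 (-0.41 ± 0.07 SE), a chain of microfibrillar collagen, COL1A1 (-0.33 ± 0.07 SE), the main chain of fibrillar collagen, and COL8A1 (-0.28 ± 0.07 SE) were lower. Without PNA-10b replicate 3 the number of lower chains was 3, and COL8A1 (-0.25) no longer passed. Against the shared Control libraries the list median was -0.62 for PNA-21 and -0.29 for PNA-10b, so both arms stood below Control.

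Among 28 matrix glycoproteins, 7 were lower (25.0%) and 1 higher (3.57%) in PNA-21, with a median of -0.14. FBN1, the fibrillin of elastic microfibrils, counted 1617, 1770 and 1424 CPM in PNA-21, 2575, 2361 and 2315 CPM in PNA-10b and 2379, 2471 and 2691 CPM in Control (-0.59 ± 0.08 SE, edgeR adjusted p = 5.7e-05). The PNA-10b and Control libraries overlapped, and the PNA-21 libraries were below both. TGFBI, a matrix protein induced by TGF-beta (-0.47 ± 0.07 SE), and CCDC80 (-0.34 ± 0.06 SE) passed under each alternative run, while FBN2 (-0.27 ± 0.06 SE) did not pass without PNA-10b replicate 1 (-0.21). Without PNA-10b replicate 1 or 3 the number of lower members was 4. The higher one was CCN1, a matrix protein of growing cells (0.38, named after its value was seen), which was lost without PNA-21 replicate 1 or PNA-10b replicate 2 (0.28 and 0.31).

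Of 27 proteases and protease inhibitors tested, 8 were lower (29.6%) and 3 higher (11.1%), with a median of -0.06. Without PNA-10b replicate 1 the lower members numbered 5. The higher ones were MMP1, SERPINB2, described below, and MMP14, a membrane-bound metalloprotease (0.21, named after its value was seen), which was lost without PNA-21 replicate 1 or 3 or PNA-10b replicate 2 or 3 (0.18 to 0.21). MMP1, the interstitial collagenase, counted 5.37, 4.58 and 5.17 CPM in PNA-21, 2.32, 2.83 and 2.38 CPM in PNA-10b and 4.69, 4.66 and 3.87 CPM in Control. Here the PNA-21 libraries overlapped Control and the PNA-10b libraries were the ones set apart, at the lowest level (1.003 ± 0.18 SE, edgeR adjusted p = 0.00144). TIMP3, a matrix-bound inhibitor of metalloproteases, is described with the reported targets below. F3, tissue factor, which starts blood clotting, counted 98.6, 126 and 82.7 CPM in PNA-21, 148, 149.5 and 156 CPM in PNA-10b and 125, 151 and 127 CPM in Control (-0.57 ± 0.12 SE). For F3 the arms were separate but PNA-21 overlapped Control. The disintegrin protease ADAM12 was lower as well (-0.29 ± 0.05 SE).

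The insulin-like growth factor (IGF) system consists of ligands, receptors, binding proteins and the proteases that cleave them. Of 10 members tested, 4 were lower and 1 higher. IGFBP3 (ENSG00000146674, chromosome 7 from 45912245 to 45921874), the main IGF carrier of serum, counted 229, 284 and 284 CPM in PNA-21, 659.8, 661 and 645 CPM in PNA-10b and 621, 624 and 622 CPM in Control. It had the smallest p of the comparison and was 2.47-fold lower in PNA-21 (log2 fold change -1.30 ± 0.07 SE, edgeR adjusted p = 8.36e-11), and the PNA-10b libraries lay slightly above Control. IGFBP1 (13.2, 15.7 and 14.5 CPM in PNA-21, 25.4, 27.99 and 27.6 CPM in PNA-10b) changed by -0.90 ± 0.09 SE and IGFBP5 (6.73, 8.195 and 6.92 CPM in PNA-21, 12.97, 12.9 and 12.3 CPM in PNA-10b) by -0.81 ± 0.12 SE, and in both the arms did not overlap.

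PAPPA2, a protease that cleaves IGF binding proteins, counted 10.1, 9.49 and 10.4 CPM in PNA-21, 17.2, 18.6 and 14.8 CPM in PNA-10b and 8.92, 10.4 and 9.28 CPM in Control (-0.75 ± 0.10 SE). For PAPPA2 the PNA-21 libraries overlapped Control and the PNA-10b libraries stood above. IGFBP4 ran the other way, with 48.6, 35.4 and 46.7 CPM in PNA-21, 31.5, 29.9 and 36 CPM in PNA-10b and 58.5, 45.7 and 55.9 CPM in Control (0.43 ± 0.10 SE). Its arms overlapped, and the call was lost without PNA-21 replicate 1 (0.35) or 3 (0.37) or PNA-10b replicate 1 (0.41) or 2 (0.37). The carriers IGFBP6 (-0.10) and IGFBP7 (-0.13), the receptors IGF1R (-0.07) and IGF2R (0.01) and the protease PAPPA (-0.18) did not pass.

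The ATF4 response is a stress programme that raises amino acid synthesis and import. Of 31 members, 7 were lower (22.6%) and 1 higher (3.23%) in PNA-21, with a median of -0.13, and the lower count was 5 to 9 without any one library. The higher one was the secreted GDF15 (0.33, named after its value was seen), lost without PNA-21 replicate 3 or PNA-10b replicate 1 (0.28 each). NUPR1, a stress-induced nuclear protein, counted 39.96, 37.97 and 40.03 CPM in PNA-21, 52.1, 55.99 and 51.6 CPM in PNA-10b and 45.5, 45.4 and 43.7 CPM in Control. The Control libraries lay between the arms, with PNA-21 below them and PNA-10b above (-0.44 ± 0.06 SE, edgeR adjusted p = 8.88e-05). ATF3, a transcription factor of the same response, counted 33.1, 35.99 and 32.3 CPM in PNA-21, 42.2, 44.9 and 40.7 CPM in PNA-10b and 33.2, 32.1 and 31.7 CPM in Control (-0.34 ± 0.07 SE), so PNA-21 overlapped Control and PNA-10b was above.

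VLDLR, a lipoprotein receptor (-0.58 ± 0.08 SE), and STC2, a secreted glycoprotein (-0.47 ± 0.08 SE), followed another pattern, with PNA-10b overlapping Control and PNA-21 below. Against the shared Control libraries the list median was 0.13 for PNA-21 and 0.22 for PNA-10b. Of 16 amino acid transporters 3 were lower (18.8%), SLC7A5 (-0.47 ± 0.12 SE), SLC1A3 (-0.36 ± 0.09 SE) and SLC6A9 (-0.38 ± 0.10 SE), with a list median of -0.12. SLC6A9 did not pass in DESeq2 (-0.38) nor without any one library of the arms (-0.39 to -0.35), SLC7A5 not in DESeq2 (-0.46) nor without PNA-21 replicate 1 or 3 or PNA-10b replicate 2 (-0.45 to -0.32), and SLC1A3 not without PNA-21 replicate 2 or PNA-10b replicate 1 or 3 (-0.34 to -0.30). Of 18 tRNA ligases 2 were lower (11.1%), DARS (-0.20 ± 0.06 SE) and WARS (-0.20 ± 0.05 SE), 5 without PNA-10b replicate 3, among which DARS was not (-0.21), 1 without PNA-21 replicate 2, and 0 without PNA-21 replicate 1 or 3 or PNA-10b replicate 1 or 2, and 4 in DESeq2.

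Of 20 endoplasmic reticulum chaperones 3 were lower (15.0%, median -0.09), with HERPUD1, a stress-induced degradation factor, at -0.27 ± 0.05 SE. The other 2 were HSPA5, the main chaperone of that compartment (-0.23 ± 0.06 SE), and the disulfide isomerase PDIA6 (-0.18 ± 0.05 SE). That count was 5 in DESeq2 or with either Control replicate 2 or 3 left out, and 1 without PNA-10b replicate 1 or 2 or PNA-21 replicate 2 or 3. Of 14 vessel growth factors and receptors 3 were lower (21.4%, median -0.15), among them the platelet-derived growth factor PDGFC (-0.32 ± 0.06 SE), with EFNB2 (-0.27) and NRP2 (-0.22) as the others, and 1 passed without PNA-10b replicate 3. Of 23 TGF-beta and BMP pathway genes 3 were lower and 1 higher, with LTBP1 (-0.30 ± 0.06 SE) and LTBP3 (-0.29 ± 0.06 SE), the proteins that hold latent TGF-beta in the matrix, among the lower ones. BMPER (-0.25 ± 0.07 SE), the last of them, did not pass in DESeq2 (-0.25), nor without any library of the arms other than PNA-10b replicate 1 (-0.28 to -0.20). The higher one, ID3 (0.29 ± 0.09 SE), did not pass without PNA-21 replicate 1 (0.25) or 3 (0.28), PNA-10b replicate 1 or 2 (0.26 each) or PNA-10b+21 replicate 1 (0.29). Nor did ID3 pass with the replicate number added to the fit as a block (0.29).

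**Figure D3:**
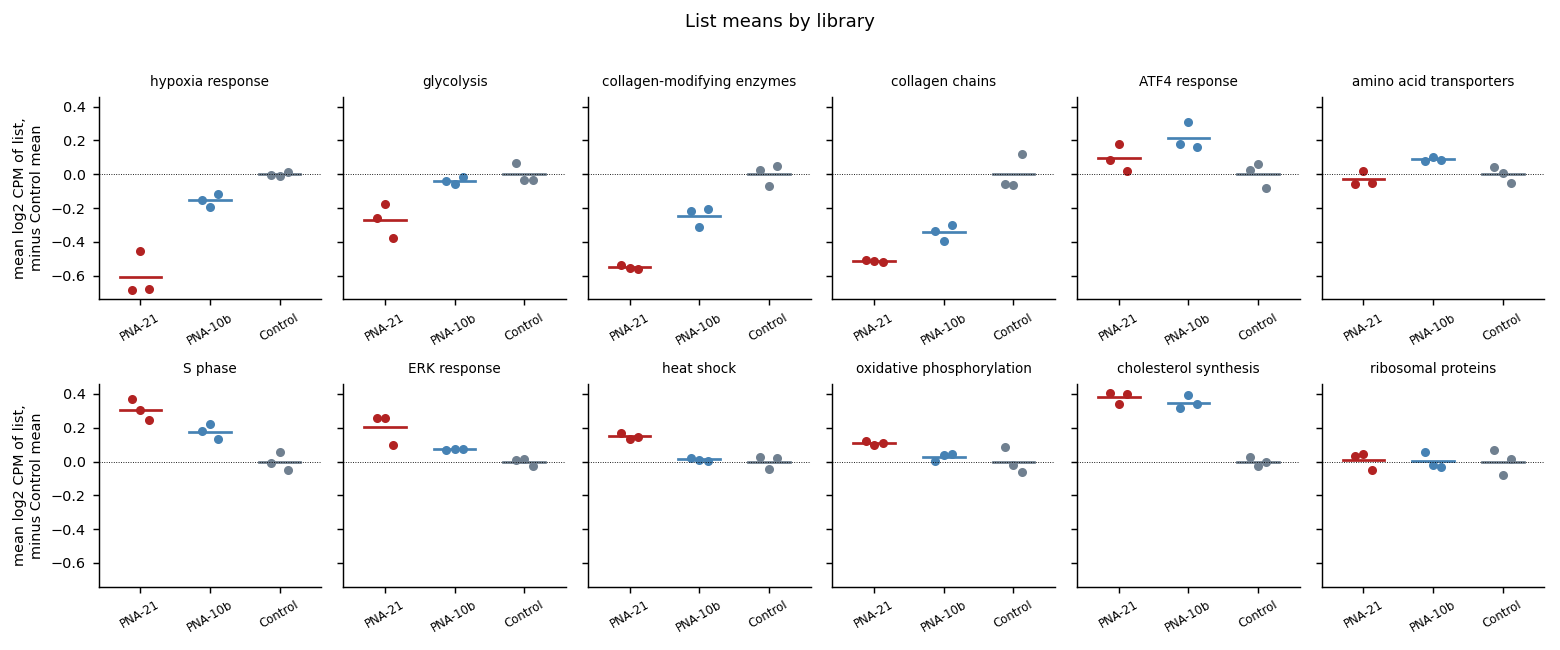
Mean log2 CPM of 12 gene lists in each library, minus the mean of the Control libraries (vertical axis, log2 units); points are the 3 libraries of PNA-21, PNA-10b and Control and lines their means. The PNA-21 libraries lie below the PNA-10b libraries for hypoxia response, glycolysis, collagen-modifying enzymes, collagen chains and amino acid transporters and above them for S phase, ERK response, heat shock and oxidative phosphorylation. Cholesterol synthesis and ribosomal proteins overlap between the arms.

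Genes higher in PNA-21 formed smaller groups with smaller folds. Targets of ERK, the kinase that carries growth factor signals, were higher in 4 of 19 cases (21.1%, against 2.91% of all genes) and lower in 0, with a median of 0.11. EREG, a ligand of the epidermal growth factor receptor, counted 362, 388 and 361 CPM in PNA-21, 227, 262 and 266 CPM in PNA-10b and 196, 226 and 188 CPM in Control (0.56 ± 0.08 SE, edgeR adjusted p = 9.12e-05). All 3 groups were separate. EPHA2, an ephrin receptor, counted 44.4, 38.9 and 38.1 CPM in PNA-21, 30.4, 28.1 and 30.8 CPM in PNA-10b and 43.6, 39.4 and 41.7 CPM in Control (0.44 ± 0.07 SE), so that PNA-21 overlapped Control and PNA-10b was below. ETV4, a transcription factor, passed by a small margin (0.25 ± 0.08 SE, edgeR adjusted p = 0.0497) and did not pass under any of the 18 alternatives (0.23 to 0.26). The fourth higher member, SPRY2, is described with the reported targets below.

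Among 22 immediate early genes, which respond within minutes to stimuli, 4 were higher (18.2%) and 1 lower (4.55%), with a median of 0.13. EGR1, a zinc finger transcription factor, counted 190.1, 164 and 173 CPM in PNA-21, 142, 103 and 140.2 CPM in PNA-10b and 182, 165 and 169 CPM in Control (0.46 ± 0.09 SE, edgeR adjusted p = 0.00278). As with EPHA2, PNA-21 overlapped Control and PNA-10b was lower. The related EGR2 was lower in PNA-21, with 12.3, 14.7 and 16.1 CPM, against 20.4, 18.6 and 20 CPM in PNA-10b and 21.4, 20.8 and 20.3 CPM in Control (-0.45 ± 0.09 SE). The count of higher members was 1 without PNA-21 replicate 1 or PNA-10b replicate 2, and 2 without PNA-21 replicate 3, PNA-10b replicate 1 or PNA-10b+21 replicate 2. A second member was lower without PNA-21 replicate 2. The other higher ones were NR4A1, described below, KLF6 (0.23 ± 0.06 SE), lost without PNA-21 replicate 1 or 2 or PNA-10b replicate 2 (0.19 to 0.20), and JUNB (0.20), named after its value was seen and lost under 12 of the 18 alternatives (0.16 to 0.23).

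Of 20 cytokines 5 were higher (25.0%) and 1 lower (5.00%). CSF3, the granulocyte colony-stimulating factor, counted 158, 157 and 128 CPM in PNA-21, 90.8, 107 and 108 CPM in PNA-10b and 73.9, 97.4 and 63.2 CPM in Control (0.54 ± 0.11 SE, edgeR adjusted p = 0.00544). IL6, an inflammatory cytokine, was the lower one, with 20.8, 24.6 and 18.3 CPM in PNA-21, 30.9, 33.4 and 35.1 CPM in PNA-10b and 29.03, 32.4 and 28.6 CPM in Control (-0.65 ± 0.10 SE). For both genes the arms were separate. IL1B (0.31 ± 0.08 SE) and IL24 (1.08 ± 0.27 SE) were higher too, IL24 at 2.01, 1.502 and 2.27 CPM in PNA-21 and 0.87, 0.943 and 0.938 CPM in PNA-10b. The number of higher cytokines was 1 without PNA-21 replicate 1 or PNA-10b replicate 1, and 3 without any other single library of the 2 arms. IL1B was lost without PNA-21 replicate 1 (0.29) or 2 (0.25) or PNA-10b replicate 1 (0.29) or 3 (0.30), and IL24 without PNA-21 replicate 1 (1.05) or 3 (0.93), without PNA-10b replicate 1 (1.04) and in DESeq2 (1.08). The other 2, LIF (0.31) and CSF1 (0.28), are named because the count is small and were chosen after their values were seen. Both were lost without PNA-21 replicate 1 or PNA-10b replicate 1 or 2, LIF also without PNA-21 replicate 2 or PNA-10b replicate 3 and CSF1 also without PNA-21 replicate 3 (0.21 to 0.33).

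Of 42 S phase genes 7 were higher (16.7%, against 2.91% of all genes) and 0 lower, 39 folds lay above 0 and the median was 0.12. RFC3, a subunit of the clamp loader of DNA replication, counted 49.8, 53.5 and 48.9 CPM in PNA-21, 36.1, 41.6 and 39.8 CPM in PNA-10b and 32.2, 34.4 and 28.6 CPM in Control (0.37 ± 0.07 SE, edgeR adjusted p = 0.00202). POLD1, the catalytic subunit of a replicative polymerase, changed by 0.28 ± 0.06 SE. E2F1 (0.28 ± 0.07 SE), a transcription factor of the entry into S phase, was lost without PNA-21 replicate 1 (0.23) or PNA-10b replicate 1 (0.26) or 3 (0.23). RRM2 (0.22 ± 0.06 SE), which makes deoxynucleotides, was lost without those libraries (0.21, 0.22 and 0.19) and without PNA-21 replicate 2 (0.19). The S phase count was 2 without PNA-21 replicate 1 or PNA-10b replicate 1 or 3, and 4 without PNA-21 replicate 2. Against the shared Control libraries the list median was 0.29 for PNA-21 and 0.18 for PNA-10b. Among 35 genes of G2 and mitosis 1 was higher (2.86%, CDK1 at 0.21 ± 0.06 SE), close to the 2.91% of all genes, and CDK1 did not pass in 9 of the 12 fits that left out 1 library (0.17 to 0.22).

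Of 27 targets of NRF2, the factor of the oxidant response, 6 were higher (22.2%) and 0 lower, with a median of 0.09. NQO1, a quinone reductase, counted 226, 186 and 226 CPM in PNA-21, 175, 167 and 160.5 CPM in PNA-10b and 205, 183 and 209.8 CPM in Control (0.35 ± 0.07 SE, edgeR adjusted p = 0.00424). MGST1, a membrane glutathione transferase, counted 388, 396 and 396 CPM in PNA-21, 316, 318 and 322 CPM in PNA-10b and 317, 278 and 279 CPM in Control (0.30 ± 0.05 SE). For NQO1 the PNA-10b libraries were lowest and PNA-21 overlapped Control, while for MGST1 the PNA-21 libraries stood above both other groups. The NRF2 count was 2 without PNA-21 replicate 1, and 3 without PNA-21 replicate 3 or PNA-10b replicate 3.

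Of 72 nuclear-encoded genes of oxidative phosphorylation 6 were higher (8.33%) and 0 lower, with 61 folds above 0 and a median of 0.09. NDUFS8, a subunit of complex I (0.25 ± 0.05 SE), and ATP5MC3, a subunit of the ATP synthase (0.24 ± 0.05 SE), passed under each alternative run, while the count was 2 without PNA-21 replicate 1 or 2 and 3 without PNA-10b replicate 2. Of 21 heat shock genes 3 were higher (14.3%, median 0.12), HSPA4 (0.24 ± 0.06 SE), HSPH1 (0.23 ± 0.06 SE) and HSPE1 (0.37 ± 0.11 SE), with 5 in DESeq2, 0 left without PNA-21 replicate 1 or 3 and 1 without PNA-10b replicate 2 or 3. HSPE1 did not pass in DESeq2, with a filter of 1 CPM in 3 libraries (0.37) and in 10 of the 12 fits that left out 1 library (0.28 to 0.42). Nor did HSPE1 pass with the replicate number added to the fit as a block (0.37). Of 13 members of the BCL2 family 2 were higher (15.4%). PMAIP1, a protein that promotes cell death, counted 28.9, 28.3 and 28.6 CPM in PNA-21, 18.8, 19.04 and 20.9 CPM in PNA-10b and 19.2, 20.1 and 18.9 CPM in Control (0.55 ± 0.08 SE). The PNA-21 libraries lay in a narrow band above both other groups. BCL2L1 (0.21 ± 0.06 SE), which opposes cell death, was lost without PNA-21 replicate 1 (0.18) or 2 (0.21) or PNA-10b replicate 1 (0.19) or 3 (0.21).

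Several lists had 0 or 1 member past the threshold in a direction. Of 25 genes of cholesterol synthesis 0 passed in edgeR, with a median of 0.02, while the list medians against the shared Control libraries were 0.40 for PNA-21 and 0.35 for PNA-10b. At an unadjusted p under 0.05, 3 of them were higher and 2 lower. By DESeq2, 2 passed, both higher, and 1 was higher in edgeR without Control replicate 3. Of 76 ribosomal protein genes 0 passed in edgeR or DESeq2 (median 0.002), and at an unadjusted p under 0.05 the numbers were 1 higher and 0 lower. Of 13 genes of fatty acid synthesis 1 was higher (7.69%, against 2.91% of all genes). It was FASN, the fatty acid synthase, at 582, 522 and 544 CPM in PNA-21, 453, 446 and 473 CPM in PNA-10b and 382, 356 and 370 CPM in Control (0.27 ± 0.05 SE). In 23 p53 response genes 1 was higher (CDKN1A, 0.23 ± 0.05 SE), a share of 4.35%, near the 2.91% of all genes. CDKN1A did not pass without PNA-21 replicate 1 (0.19). A p above the threshold does not show that levels were equal.

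The metallothioneins, small proteins that bind zinc and copper, are close paralogs, so the split of reads among them is uncertain. Of 8 members of the metallothionein and zinc list 2 were lower (25.0%, against 3.88% of all genes) and 1 higher (12.5%, against 2.91%). MT3, the member first found in brain, counted 1.24, 1.78 and 1.58 CPM in PNA-21, 4.93, 4.12 and 4.38 CPM in PNA-10b and 4.36, 4.36 and 3.31 CPM in Control. It had the largest fall by the rule for named genes, 2.91-fold (-1.54 ± 0.21 SE, edgeR adjusted p = 9.3e-05), and its PNA-10b and Control libraries overlapped. MT1E (-0.26 ± 0.08 SE) was lower in the main test but not with PNA-10b+21 replicate 2 (-0.26), PNA-21 replicate 1 (-0.23) or 3 (-0.21) or PNA-10b replicate 1 (-0.25) or 3 (-0.24) left out. The zinc exporter SLC30A1 (0.42 ± 0.12 SE) was higher in the main test but not in DESeq2 (0.42) nor without PNA-21 replicate 1, 2 or 3 or PNA-10b replicate 1 or 2 (0.28 to 0.43), Control replicate 1 or PNA-10b+21 replicate 1 (0.41 each). MT2A (-0.07), MT1F (-0.17), MT1X (0.02), MT1M (0.25) and the transcription factor MTF1 (-0.15) did not pass.

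The genes named for the size of their change were taken from those that passed in edgeR and DESeq2, had arms that did not overlap and averaged 1 or more in log2 CPM. Beyond the lists they were of varied function. ZP1, a glycoprotein known from the egg coat, counted 11.7, 16.5 and 11.8 CPM in PNA-21, 37.6, 34.5 and 35.2 CPM in PNA-10b and 39.4, 33.8 and 37.7 CPM in Control (-1.44 ± 0.12 SE, edgeR adjusted p = 2.94e-07). SYNPO, synaptopodin, an actin-associated protein, counted 206, 239.5 and 195 CPM in PNA-21, 456, 426 and 457 CPM in PNA-10b and 472, 479 and 517 CPM in Control (-1.07 ± 0.08 SE). CPA4, a carboxypeptidase, counted 137, 162 and 148 CPM in PNA-21, 329, 282 and 286 CPM in PNA-10b and 292, 276 and 305 CPM in Control (-1.002 ± 0.07 SE). In all 3 the PNA-21 libraries were set far below the others, and for ZP1 and CPA4 PNA-10b overlapped Control. The mucin MUC1 counted 7.14, 7.65 and 7.82 CPM in PNA-21, 17.9, 15.6 and 20.6 CPM in PNA-10b and 24.3, 23.7 and 26.3 CPM in Control (-1.26 ± 0.12 SE), with PNA-10b between the other groups. Outside that rule, SCG5 (-4.62 ± 1.22 SE) and NAP1L4 (3.72 ± 1.11 SE) had larger folds in edgeR, with arms that overlapped, and METRNL (-1.33 ± 0.38 SE) had separate arms. NAP1L4 and METRNL did not pass in DESeq2, which gave no adjusted p for SCG5. These 3 were named after their values were seen.

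The remaining named falls were TREM1, a receptor known from myeloid cells (-1.34 ± 0.14 SE), the immunoglobulin superfamily gene IGSF10 (-1.21 ± 0.21 SE), the microtubule-associated MAP7D2 (-1.09 ± 0.19 SE), the sialyltransferase ST8SIA5 (-1.03 ± 0.17 SE), the secreted factor NDNF (-0.98 ± 0.12 SE) and the antisense RNA DARS-AS1 (-1.02 ± 0.18 SE). TREM1 averaged 3.87 ± 0.393 CPM in PNA-21, 9.75 ± 0.888 CPM in PNA-10b and 9.87 ± 1.54 CPM in Control (SD, n = 3 each). CSF1R, the only immune marker tested, changed by -0.36 ± 0.09 SE. Its call was lost in DESeq2 (-0.36), without PNA-21 replicate 3 (-0.30) and without PNA-10b replicate 2 or 3 (-0.34 each). PTPRC, another immune marker, had too few counts to be tested and ran the other way. It held 13, 29 and 7 counts in PNA-21, 3, 2 and 0 in PNA-10b and 0, 5 and 3 in Control.

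Among the named rises, TFPI2, a secreted protease inhibitor, counted 542, 606 and 568 CPM in PNA-21, 360.5, 362 and 358 CPM in PNA-10b and 323, 334 and 303 CPM in Control (0.67 ± 0.07 SE, edgeR adjusted p = 7.5e-06). BEX1, an adaptor protein of neurons, counted 31.2, 30.2 and 36.7 CPM in PNA-21, 18.9, 20.6 and 16.8 CPM in PNA-10b and 16.2, 16.3 and 14.4 CPM in Control (0.80 ± 0.10 SE). In both genes PNA-21 stood highest, apart from the other groups. CHI3L1, a secreted glycoprotein of glioma and astrocytes, counted 1321, 1072 and 1636 CPM in PNA-21, 897, 731 and 906 CPM in PNA-10b and 1508, 1145 and 1522 CPM in Control (0.67 ± 0.12 SE), so that PNA-21 overlapped Control and PNA-10b was below.

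The WNT enhancer RSPO3 (0.67 ± 0.11 SE), the adhesion protein LSAMP (0.67 ± 0.14 SE), the sugar epimerase RENBP (0.77 ± 0.13 SE), the kinase-like RPS6KL1 (0.95 ± 0.20 SE), CCDC69 (0.96 ± 0.19 SE) and the antisense RNA PAX8-AS1 (0.78 ± 0.13 SE) were also higher. SERPINB2, an inhibitor of plasminogen activators (0.79 ± 0.19 SE), and the nuclear receptor NR4A1 (0.71 ± 0.21 SE) were the least stable named rises. SERPINB2 did not pass without PNA-21 replicate 2 (0.57) or PNA-10b replicate 1 (0.72), and NR4A1 not with PNA-10b+21 replicate 2 (0.71), PNA-21 replicate 1 (0.54) or 3 (0.80) or PNA-10b replicate 1 (0.80) or 2 (0.49) left out. Counts at the antisense genes are less certain because the sources used here do not give the strand setting of the counting.

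**Figure D4:**
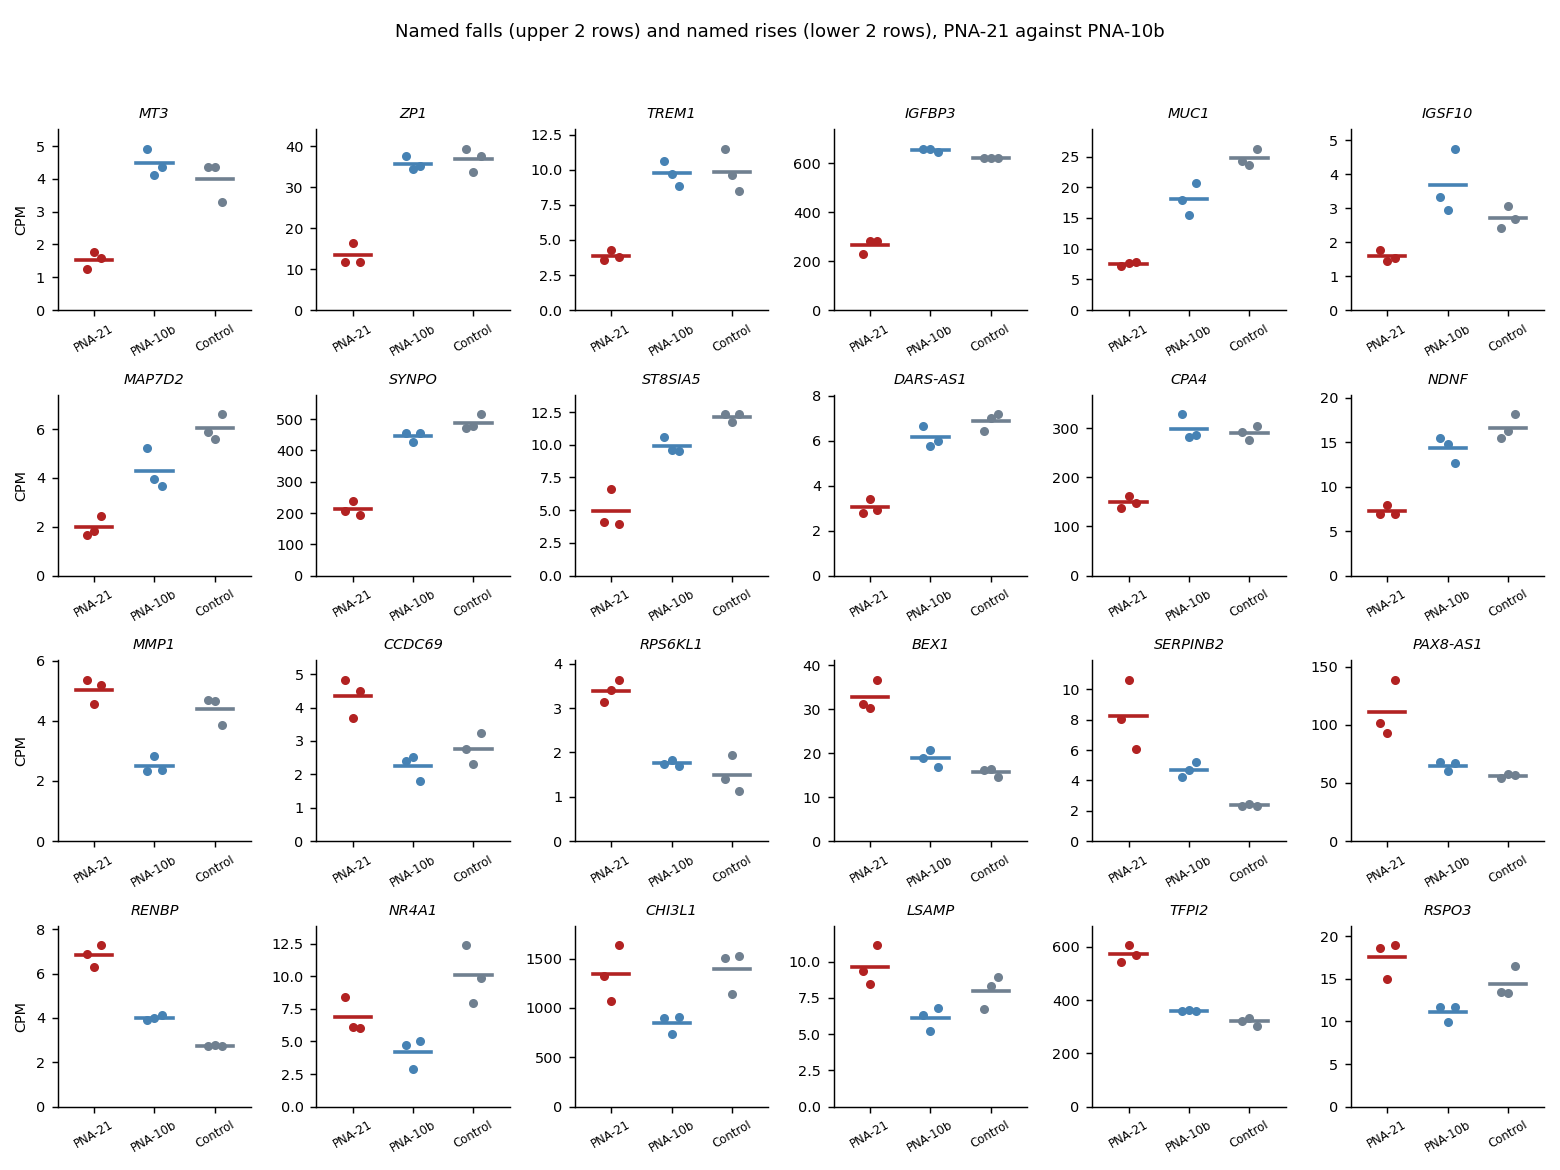
CPM (vertical axis, from 0) of the 12 falls (upper rows) and 12 rises (lower rows) of PNA-21 against PNA-10b that were largest among genes that passed in edgeR and DESeq2, had separate arms and averaged 1 or more in log2 CPM, with 1 point a library and a line at the mean of the 3 libraries of PNA-21, PNA-10b and Control. IGFBP3, ZP1, TREM1, CPA4 and MT3 are low in PNA-21 and near Control in PNA-10b, whereas MMP1, CHI3L1 and NR4A1 are lowest in PNA-10b.

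An anti-seed agent is directed at a microRNA that acts on transcripts with sites for it, so the reported targets of each microRNA were read next. Of 27 genes reported as miR-21 targets 2 were higher (7.41%, against 2.91% of all genes) and 4 lower (14.8%, against 3.88%) in PNA-21, with a median of 0.006. Of 19 reported miR-10b targets 1 was higher (5.26%) and 0 lower, with a median of 0.05. The 3′ UTR windows of 4 members that moved, and of PDCD4, the best known target of miR-21, are shown with the seed match in capitals (GENCODE release 29 transcripts, hg38). An 8mer match has, beyond the letters paired with the seed, an A after it.
YOD1, chr1:207048938-207048967, minus strand: tgggttttccaATAAGCTatggtaacccta
SPRY2, chr13:80336504-80336533, minus strand: ccatgtattgcATAAGCTaaagcaacacag
TIMP3, chr22:32860398-32860427, plus strand: cacatggggacATAAGCTaatttttttaca
IGFBP3, chr7:45912944-45912973, minus strand: tatttctgaggATAAGCTctttaaaggcaa
PDCD4, chr10:110898319-110898348, plus strand: ggaatattctaATAAGCTaccttttgtaag
The windows of YOD1, SPRY2, TIMP3 and PDCD4 are 8mer matches. The IGFBP3 window lacks the following A. LRRFIP1 and TPM1, which moved too, held no match to the seed in the UTR searched.

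SPRY2, an inhibitor of growth factor signalling, counted 201, 192 and 172 CPM in PNA-21, 156, 144 and 146 CPM in PNA-10b and 142, 135 and 128 CPM in Control (0.34 ± 0.06 SE, edgeR adjusted p = 0.00097). YOD1, a deubiquitinase, counted 16.3, 20.8 and 16.4 CPM in PNA-21, 10.5, 13.5 and 15.1 CPM in PNA-10b and 9.38, 12.4 and 9.44 CPM in Control (0.44 ± 0.13 SE, edgeR adjusted p = 0.0405). The arms were separate in both, and PNA-10b lay above Control for SPRY2 and overlapped it for YOD1. The YOD1 call was lost without any one library of the arms other than PNA-10b replicate 3, and without Control replicate 1 or PNA-10b+21 replicate 1 or 3, with values from 0.32 to 0.50. TIMP3, which holds an 8mer match as they do, went the other way, with 32.8, 34.8 and 39.7 CPM in PNA-21, 58.1, 52.2 and 57.6 CPM in PNA-10b and 67.7, 63.2 and 71.1 CPM in Control (-0.64 ± 0.07 SE, edgeR adjusted p = 1.05e-05).

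IGFBP3, described above, LRRFIP1, a transcriptional repressor (-0.37 ± 0.06 SE), and TPM1, tropomyosin (-0.28 ± 0.07 SE), were lower too, TPM1 not without PNA-21 replicate 3 (-0.23). PDCD4, an inhibitor of translation, counted 31.2, 29.6 and 32.5 CPM in PNA-21, 33.3, 35.5 and 31.2 CPM in PNA-10b and 34.5, 37.5 and 40.7 CPM in Control. Its arms overlapped (-0.10 ± 0.07 SE, edgeR adjusted p = 0.446). The protease inhibitor RECK (0.01 ± 0.07 SE), the receptor TGFBR2 (-0.17 ± 0.05 SE), SMAD7 (-0.31 ± 0.13 SE) and SPRY1 (-0.12 ± 0.22 SE) did not pass.

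Others of the miR-21 list that did not pass were ANP32A (-0.04), BCL2 (0.21), BTG2 (0.26), CDC25A (0.16), JAG1 (-0.06), JMY (0.12), KRIT1 (0.11), MARCKS (0.05), NFIB (0.01), PELI1 (0.34), RHOB (0.29), SKI (0.00) and TOPORS (-0.01), given as log2 fold changes. DAXX (0.24) was counted at 0.211 to 1.48 CPM in the arms, too low to say more.

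In the miR-10b list CDKN1A, the cell cycle inhibitor p21, was higher in PNA-21, with 318, 294 and 297 CPM, against 256, 264 and 257 CPM in PNA-10b and 284, 253 and 259.6 CPM in Control (0.23 ± 0.05 SE). HOXD10 was near the limit of counting, at 0.708, 0.683 and 0.845 CPM in PNA-21 and 1.16, 0.825 and 0.688 CPM in PNA-10b, and its difference (-0.23 ± 0.31 SE) was not detectable at this depth. The ubiquitin protease CYLD (0.14 ± 0.05 SE), the neurofibromin gene NF1 (-0.02 ± 0.05 SE), KLF4 (-0.01 ± 0.09 SE), TFAP2C (0.14 ± 0.24 SE), TIAM1 (0.03 ± 0.07 SE) and BCL2L11 (0.27 ± 0.15 SE) did not pass. The others lay between -0.11 (APAF1 and FOXO3) and 0.34 (MBNL3) in log2 fold change, and none of them passed. Of 12 genes of the microRNA machinery 0 passed in edgeR or DESeq2, 0 higher and 0 lower at an unadjusted p under 0.05, with the Dicer nuclease gene DICER1 at 0.00 ± 0.06 SE and AGO2, the slicing Argonaute, at 0.07 ± 0.06 SE.

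Of 4 genes at the host loci 0 passed in edgeR or DESeq2, with 1 higher and 0 lower at an unadjusted p under 0.05. VMP1, whose locus holds MIR21, counted 418, 454 and 459.5 CPM in PNA-21, 393, 382 and 430.2 CPM in PNA-10b and 460.5, 435 and 391 CPM in Control (0.14 ± 0.06 SE, edgeR adjusted p = 0.192). HOXD4 (0.03 ± 0.15 SE), HOXD3 (0.05 ± 0.44 SE) and HOXD8 (-0.10 ± 0.09 SE), neighbours of MIR10B, did not pass. The row for MIR10B itself held 1, 3 and 4 counts in PNA-21 and 7, 0 and 3 in PNA-10b, and mature microRNAs were not measured.

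Beyond the reported targets, all genes with an annotated 3′ UTR were sorted by seed match, with the agents read in opposite directions: sites of miR-21 are addressed in PNA-21 and sites of miR-10b in PNA-10b. This was possible for 12234 tested genes. Of 1269 genes with a miR-21 match 45 were higher (3.55%) and 63 lower (4.96%) in PNA-21, with a median log2 fold change of 0.0208. Of 1834 genes with a miR-10b match 49 were higher (2.67%) and 97 lower (5.29%), with a median of 0.0057. Of 9476 genes with neither, 360 were higher (3.80%) and 390 lower (4.12%), with a median of 0.0193. Against the genes with neither, the miR-21 set differed by 0.0015 and the miR-10b set by -0.0136 in median log2 fold change.

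Per library, and relative to the mean of the 6 libraries, the miR-21 set deviated from the genes with neither by between -0.018 and 0.0172 log2 units in PNA-21 and between -0.016 and 0.0186 in PNA-10b, so the arms overlapped. The miR-10b set deviated by between -0.0104 and 0.0018 in PNA-21 and between 0.004 and 0.0107 in PNA-10b, with no overlap. UTR length differed between the sets, with medians of 3342 bases for miR-21 matches, 3202 for miR-10b matches and 1073 for neither. Among genes in the longest tertile of UTR length, the miR-21 set differed from the genes with neither by 0.0092 and the miR-10b set by -0.0027. In the middle tertile the differences were 0.0169 for miR-21 and -0.0118 for miR-10b, and in the shortest tertile 0.0323 and 0.0093. The difference was thus above 0 in each tertile for miR-21 and changed sign between tertiles for miR-10b. In the longest tertile 4.83% of the miR-21 set, 5.34% of the miR-10b set and 5.77% of genes with neither were lower. These shares were 5.00%, 5.39% and 4.20% in the middle and 6.33%, 4.31% and 3.09% in the shortest tertile.

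Genes with a miR-21 8mer match (364 genes) differed from the genes with neither by 0.0205, and by 0.0298 in the longest, 0.0317 in the middle and 0.0443 in the shortest tertile. Of them 18 were higher (4.95%) and 21 lower (5.77%) in PNA-21. Genes with a miR-10b 8mer match (305 genes) differed by -0.0201, and by -0.0039, -0.0286 and 0.0315 in the same tertiles. Of them 8 were higher (2.62%) and 23 lower (7.54%), against the 3.80% and 4.12% of genes with neither at any UTR length. In the longest tertile the lower share was 6.85%, against 5.77% of genes with neither. It was 11.1% (7 genes) against 4.20% in the middle and 4.35% (1 gene) against 3.09% in the shortest tertile. The higher share was 3.20% against 2.78%, 1.59% against 4.08% and 0% against 4.15% in the same order. Of the named genes with a miR-10b 8mer match that passed the test, EPHA2 and LSAMP were higher, and FBN1, CCDC80 and VLDLR lower, in PNA-21. Their windows are shown as the members of that set described above, and VLDLR also holds a miR-21 8mer match.
EPHA2, chr1:16124814-16124843, minus strand: gcgccaagtaaACAGGGTacctcaagcccc
LSAMP, chr3:115809098-115809127, minus strand: cctggcatttaACAGGGTaggccctgctcc
FBN1, chr15:48642761-48642790, minus strand: ccttcctaaaaACAGGGTattaatagaatt
CCDC80, chr3:112598116-112598145, minus strand: gccaaattagaACAGGGTaggcagaggcag
VLDLR, chr9:2657058-2657087, plus strand: aatagcaaactACAGGGTattaaaagacta

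**Figure D5:**
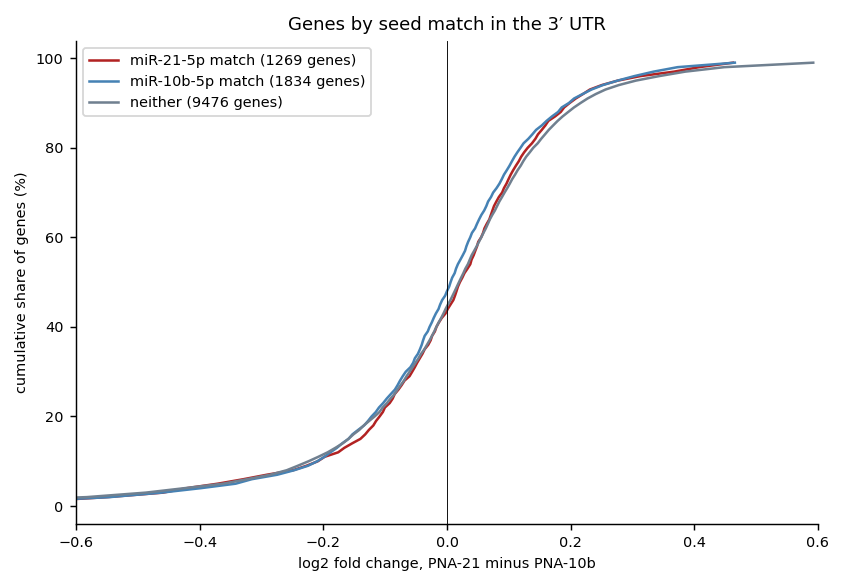
Cumulative share of genes (vertical axis, percent) by log2 fold change of PNA-21 against PNA-10b (horizontal axis), for 1269 genes with a miR-21-5p match, 1834 with a miR-10b-5p match and 9476 with neither in the 3′ UTR. The 3 curves nearly coincide, with medians of 0.0208, 0.0057 and 0.0193.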

How the data were processed

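RNA of U87 cells was made into strand-specific mRNA libraries, per the labels' protocols. The values are raw counts of reads per gene deposited by the authors, 1 column a library for 12 libraries. HISAT2 2.1.0, SAMtools 1.7, HTSeq 0.11.0 and the build hg38 are named in the submitters' processing notes, while the strand setting and annotation release of the counting were not given in those sources. Groups come from the labels, and each column was matched to its library by name.

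Counts were fitted with edgeR 4.0.16 (R 4.3.3), quasi-likelihood, TMM factors, filterByExpr at a minimum count of 10, all 12 libraries in 1 fit with a mean per group, and Benjamini-Hochberg adjustment over 15715 genes at 0.05. The filter removed 20026 genes and kept 99.84% of counts. CPM values use TMM library sizes, except that marker sums use total counts. The script was tested on simulated data. Replicate libraries of an arm differed by more than sampling noise (chi-square per degree of freedom 2.86 to 4.28). Alternatives were RLE factors, DESeq2 1.42.0, no filter, a filter of 1 CPM in 3 libraries, only the 6 libraries, the replicate number as a block, and each library left out.

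Members and lists were chosen with earlier results of these data known. Named genes are, by log2 fold change, the top 12 in each direction that passed in edgeR and DESeq2, had arms that did not overlap and averaged 1 or more in log2 CPM, up to 4 members a list by smallest p, every member of lists with at most 12 tested members, the reported targets and host loci, and the markers; others are marked as named after their values were seen. Of 865 list entries 21 had no row matched by symbol and were not analysed here. Some list members and their results are not reported here. Seed matches (bases 2 to 8) were searched in the longest 3′ UTR a gene has in GENCODE 29. Coordinates are 1-based, hg38.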

Additional observations from a re-analysis of the deposited data

How the results depend on the processing

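Of the 24 changes named for their size, 22 passed under all 18 alternatives and 425 of 432 values kept direction and side of the threshold, with 7 below it and 0 reversed. The numbers of higher and lower genes were 458 and 609. With each library left out in turn, higher genes ran from 194 to 481, lower genes from 351 to 685, 2-fold higher genes from 4 to 9 and 2-fold lower genes from 20 to 40. DESeq2 gave 3 genes at least 2-fold higher. Without a filter 36 were at least 2-fold higher and 64 at least 2-fold lower, where genes of low counts were also tested. The labels state no pairing of the libraries by replicate number. Same-number correlations of deviations between the arms were 0.059, 0.023 and 0.034, and those of unlike numbers ran from -0.075 to 0.041. PNA-21 replicates 1 and 3 correlated best with the PNA-10b library of the same number, and PNA-21 replicate 2 with PNA-10b replicate 3 (0.041). Whether libraries of the same number share an effect was not tested. With the replicate block 541 genes were higher and 663 lower.

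The miR-21 set differed from genes with neither match by 0.0205 with 8mer matches, by 0.0323 in the shortest tertile of UTRs, and by -0.0129 to 0.0138 with each library left out. For miR-10b these were -0.0201, 0.0093 and -0.0179 to -0.0094, with -0.0027 in the longest tertile. The cause was not tested. Depth limited the reading of HOXD10, DAXX and the MIR10B row, which held few counts.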
